A study of Mus musculus with 15 samples.

Results

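The 49 genes described here encode the enzymes and carriers of the urea cycle and of amino acid breakdown that are characteristic of liver. They were chosen as a list of gene symbols from known pathways, with earlier results of these data known. Their comparison as a set with all genes below is therefore a description and not a test. Each symbol was matched to 1 entry of the deposited expression table, which has 55849 gene entries. All 49 were found, and all 49 were among the 12168 genes that passed the filter on low values described below. They fall into 9 roles, with 7 genes of the urea cycle, 5 of glutamate metabolism and transamination, 4 of tyrosine, 4 of tryptophan, 6 of the methionine cycle and transsulfuration, 10 of serine, glycine and sarcosine metabolism, 3 of proline and ornithine, 4 of histidine and 6 of branched-chain amino acid and lysine breakdown.

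RNA was sequenced from livers of mice in 15 libraries, 5 labelled Young control, 5 labelled Aged control and 5 labelled KSL0608-Se + irradiation, called young, aged and treated below. KSL0608-Se is the code name of a compound, and the title of the series concerns killing of senescent cells under light. The labels state no age, sex, strain, dose, light setting or genotype for any group, and they do not say whether the treated mice were young or aged. They also do not say that each library came from its own animal, so the p-values below measure the spread between libraries, which may be partly technical.

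Liver cells break down much of the amino acids that reach them in blood from the gut and the muscles. Amino groups are passed by aminotransferases to glutamate, released as ammonia in mitochondria and built into urea by the enzymes of the urea cycle, which are concentrated in the hepatocytes around the portal vein. The methionine cycle makes S-adenosylmethionine, the donor of methyl groups, and disposes of the homocysteine that is left when the methyl group has been used.

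Expression is given as TPM, the share of each gene in all transcripts of a library, which the authors corrected for transcript length, so that levels can be compared between genes. TPM carry no read numbers, so depth is unknown here and no counting interval is given. Differences between groups are on the log2(TPM + 1) scale, on which -1 corresponds to a halving and which understates the change of genes with low values. They were tested with limma over the 12168 genes that averaged 1 TPM or more across libraries, and a gene is called where its Benjamini-Hochberg adjusted p is under 0.05. Where a mean is said to be lower or higher in a group without a TPM value, it is the mean on this log2 scale.

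Expression of the 49 genes spanned a wide range. Averaged over the 15 libraries, the argininosuccinate synthase gene Ass1 was the most abundant at 2857 TPM, followed by Hpd at 2728, Gnmt at 2527 and Bhmt at 2118 TPM. Mat1a, Arg1, Ahcy and Tat came next with 1249, 1215, 1188 and 1017 TPM. The least abundant were Mccc1 at 28.8, Hibch at 26.8 and Sdsl, a serine dehydratase-like enzyme, at 11.9 TPM. Together the 49 genes made up 2.82 ± 0.43% of all TPM in the young libraries, 2.37 ± 0.281% in the aged and 1.97 ± 0.422% in the treated libraries (SD, n = 5 each).

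Hepatocyte transcripts were present in every library, and the sum of 23 hepatocyte markers ranged from 218200 to 259500 TPM in young, from 188400 to 218100 in aged and from 189900 to 207800 in treated libraries. Young 4 stood apart from the other young libraries, with a median-ratio scaling factor of 0.711 where the others had 1 to 1.1, the highest sum of mitochondrially encoded genes of all 15 libraries at 109100 TPM, and the lowest sum of macrophage and Kupffer cell markers at 285 TPM. The sum of 13 macrophage and Kupffer cell markers ranged from 285 to 812 TPM in young, from 855 to 1737 in aged and from 595 to 3210 in treated libraries, with the highest value in treated 5. B and plasma cell markers ranged from 79.3 to 133 TPM in young, 538 to 5204 in aged and 441 to 5285 TPM in treated libraries. Most of the young sum, 109.7 TPM on average, was Xbp1, which averaged 89.0, 91.0 and 97.6 TPM in young, aged and treated livers. None of the markers of any list was at 0 in all libraries.

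**Figure D1:**
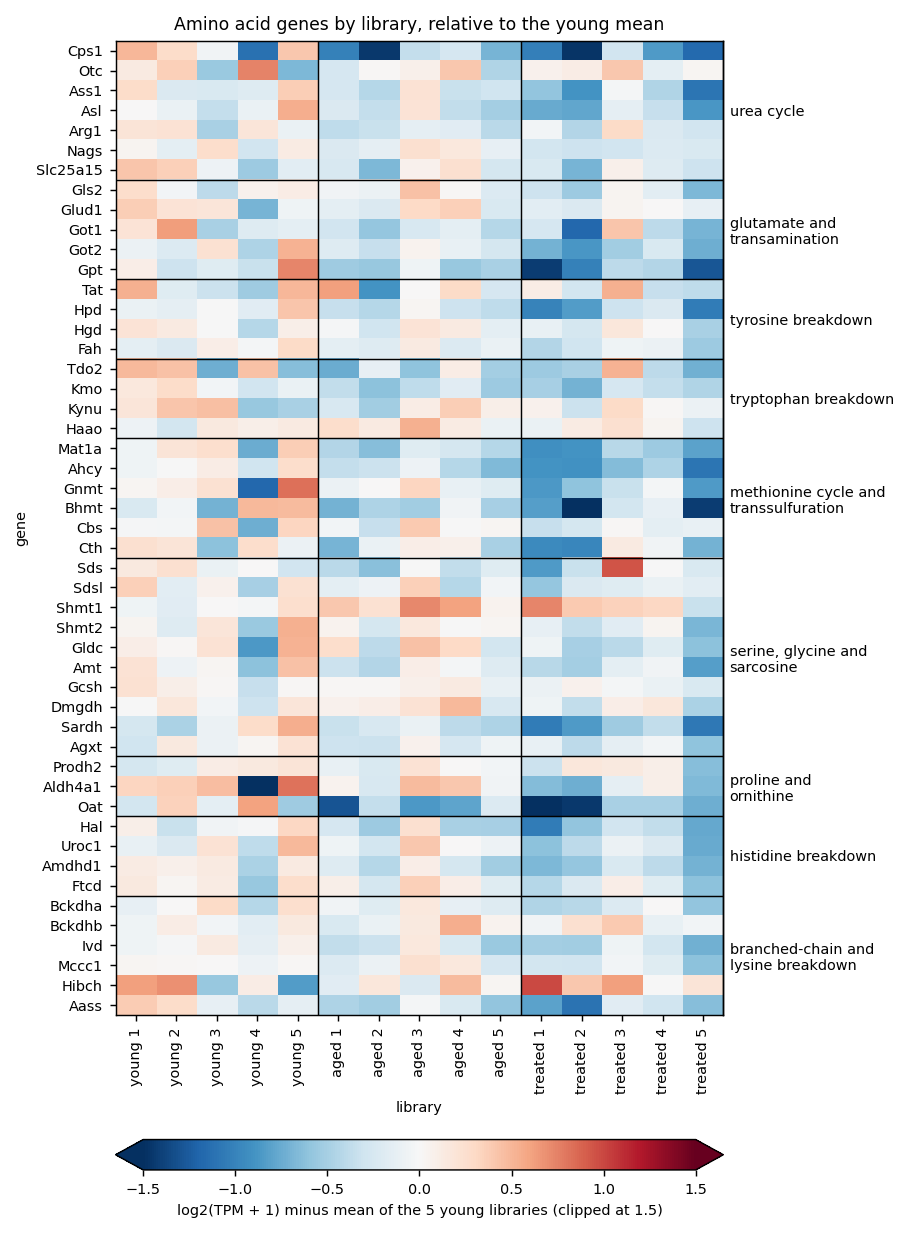
Each row is one of the 49 genes, grouped by role, and each column is a library. Colour is the log2(TPM + 1) value minus the mean of the 5 young libraries, blue for lower and red for higher, limited at 1.5 in either direction. Blue is most widespread in treated 1, 2 and 5, where 44, 42 and 47 of the 49 genes lie below the young mean.

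In treated against young livers, 3 of the 49 genes fell and none rose. The share of members called was 6.12%, while 2.91% of all genes tested were called in either direction and 0.731% were called as lower. The 3 genes were Ahcy, which clears S-adenosylhomocysteine in the methionine cycle, Sardh, the mitochondrial sarcosine dehydrogenase, and Gpt, the cytosolic alanine aminotransferase. A further 15 genes had an unadjusted p under 0.05 with a lower treated mean but did not pass the adjusted threshold, which makes 18 of 49 (36.7%) against 17.8% of all genes tested at the unadjusted threshold. The treated mean was lower for 45 of 49 genes (91.8%), whereas it was lower for 42.5% of all genes tested. The median log2 difference of the 49 genes was -0.33, beside 0.06 over all genes tested. Abundant genes as a whole were called more often and lay lower than all genes. Of the 1015 genes that averaged 100 TPM or more, 6.8% were called and 3.55% called as lower, 58.1% had lower treated means, and the median was -0.07. Of the 37 members at that level, 3 (8.11%) were called, 35 (94.6%) had lower treated means, and the median was -0.42. Every treated library lay below every young library for 3 genes, Ahcy, Gpt and Hpd (6.12%), beside 0.953% of all genes tested. For no member was the reverse true, and the share of all genes with the reverse was not computed.

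These counts depended on single libraries. Leaving out young 4 raised the number of members called to 12, but it also raised the calls over all genes to 1192 (9.78%), 704 of them lower. Without treated 4 it was 5, with 3.05% of all genes called. It was 1, Ahcy, when any one of young 3, young 5, aged 1, aged 2, treated 1, treated 2 or treated 5 was left out, and the share over all genes in these fits was 1.51 to 4.92%. Over all genes, 89 of the 354 called genes were lower in treated livers, a split that was 242 of 598 with median-ratio scaling and 322 of 574 with quantile normalization.

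Markers of other cell types also differed in this comparison. All 13 macrophage and Kupffer cell markers had higher means in treated than in young livers, with 3 of them called, and all 11 B and plasma cell markers did, also with 3 called. All 10 tested T and NK cell markers and all 4 tested neutrophil markers had higher treated means, with 1 called in each list. Of 23 hepatocyte markers, 14 had lower means in treated livers, Rbp4 and Cyp2e1 were called, and their median log2 difference was -0.29, beside -0.33 for the 49 genes. Of 14 periportal markers 11 had lower treated means and 3 were called as lower, Cdh1, Mup20 and Etnppl. Of 17 pericentral markers 14 had lower treated means and 3 were called as lower, Cyp2e1, Cyp1a2 and Slc1a2. The medians of both lists were -0.28, and both had a larger share of called genes than the 3 of 49 here. The part of these shifts in the values of the 49 genes was not tested, and in bulk tissue fewer cells of a type and less RNA per cell cannot be told apart.

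Between aged and young livers none of the 49 genes was called, beside 1.08% of all genes tested. The smallest adjusted p was 0.266 in limma, and 5 members (10.2%) had an unadjusted p under 0.05, against 8.72% of all genes tested. Aged means were lower for 37 of the 49 genes (75.5%), beside 40.4% of all genes tested, with a median log2 difference of -0.10 beside 0.05 over all genes and 0.002 over the 1015 genes at 100 TPM or more. In the same comparison 20 of 23 hepatocyte markers had lower aged means, with a median of -0.20 and none called. All 11 B and plasma cell markers had higher aged means, with a median of 1.74 and 3 called, and 12 of 13 macrophage and Kupffer cell markers had higher means with none called. Their part in the values of the 49 genes was not tested. No member had every aged library below every young library, a pattern seen in 0.575% of all genes tested. None had the reverse, for which the share of all genes was not computed.

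Between treated and aged livers none of the 49 was called either, beside 0.00822% of all genes tested, which is 1 gene. The smallest adjusted p of a member was 0.925 in limma, and 5 members (10.2%) had an unadjusted p under 0.05, against 4.41% of all genes tested. Treated means were lower for 42 of the 49 genes (85.7%), beside 50% of all genes tested, with a median log2 difference of -0.24 beside 0.00 over all genes. Over the 1015 genes at 100 TPM or more, 63.3% had lower treated means and the median was -0.09. Of 23 hepatocyte markers 14 had lower treated means, with a median of -0.06. Of 14 periportal markers 9 did and of 17 pericentral markers 11 did, with medians of -0.13 and -0.12. Of 11 B and plasma cell markers 8 did, with a median of -0.215. All 13 macrophage and Kupffer cell markers had higher treated means, with a median of 0.41. None of these markers was called, and their part in the values of the 49 genes was not tested. No member had all treated libraries below all aged libraries, beside 0.288% of all genes tested. The 3 comparisons share libraries, so their values are set side by side below and are not taken as support for each other.

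**Figure D2:**
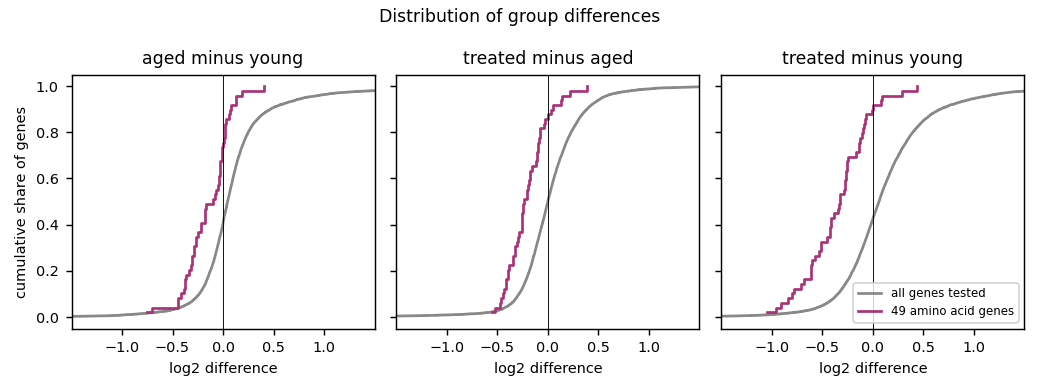
Cumulative share of genes (vertical axis) against the log2 difference (horizontal axis) for the 49 amino acid genes and for all 12168 genes tested, in the 3 comparisons. Over most of its length the curve of the 49 genes lies to the left of the curve of all genes, with medians of -0.10, -0.24 and -0.33 beside 0.05, 0.00 and 0.06.

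**Figure D3:**
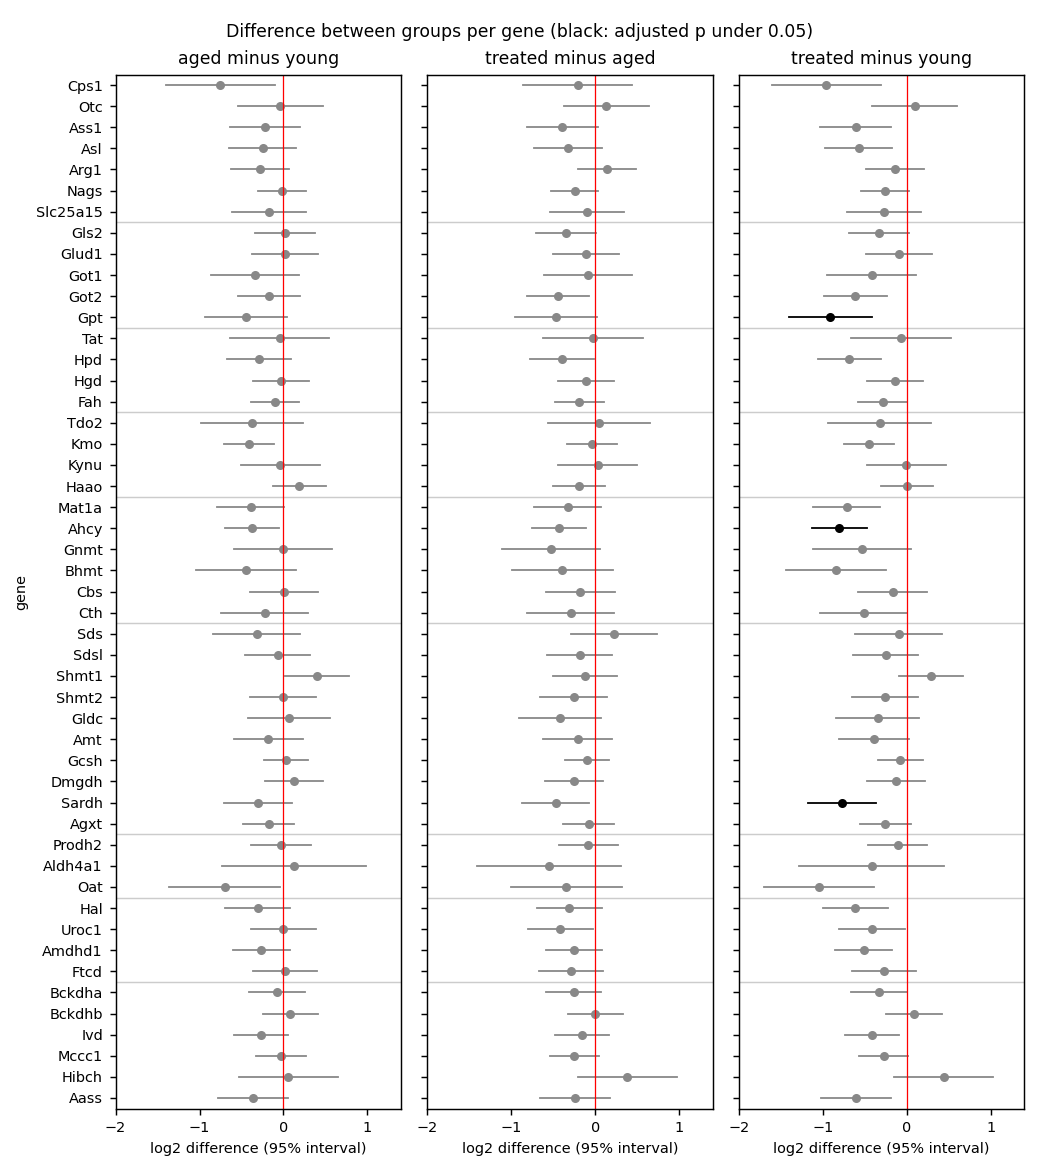
Log2 difference of each of the 49 genes with its 95% interval, grouped by role, in the 3 comparisons. Black marks an adjusted p under 0.05, which holds for Gpt, Ahcy and Sardh in treated minus young and for no gene in the other comparisons.

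In the methionine cycle, all 6 genes averaged lower in treated than in young livers, with a median log2 difference of -0.63, and Ahcy fell. Ahcy splits S-adenosylhomocysteine, the product left by methyl transfer, into adenosine and homocysteine. Its level was 1434, 1499, 1633, 1221 and 1805 TPM in young libraries 1 to 5, 1174, 1199, 1424, 1118 and 949 TPM in aged libraries 1 to 5 and 806, 802, 958, 1096 and 702 TPM in treated libraries 1 to 5. All 5 treated libraries lay below the lowest young library, and the aged libraries overlapped with both groups. Ahcy averaged 1519 ± 218 TPM in young and 873 ± 155 TPM in treated livers (SD, n = 5 each), a log2 difference of -0.80 ± 0.15 (SE), or 0.573 times the young level, with a limma adjusted p of 0.00872. The aged mean of 1173 ± 171 TPM lay between them, at -0.37 against young (adjusted p = 0.449) and -0.43 for treated against aged (adjusted p = 0.925). Ahcy remained called for treated against young in each of the 27 alternative analyses, with adjusted p from 0.00188 to 0.0284.

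The promoter of Ahcy is shown with that of Sardh because these are the called members with a window in the RefSeq promoter table, which gives 250 bases before and 50 bases after the start of a gene on GRCm38.p6. This build is older than the GRCm39 used by the authors. Both genes lie on the minus strand of chromosome 2, Ahcy at chr2:155074448-155074747 and Sardh at chr2:27247254-27247553. Both are written 5′ to 3′ along the gene, with the matches to the searched motifs in capitals.
Ahcy: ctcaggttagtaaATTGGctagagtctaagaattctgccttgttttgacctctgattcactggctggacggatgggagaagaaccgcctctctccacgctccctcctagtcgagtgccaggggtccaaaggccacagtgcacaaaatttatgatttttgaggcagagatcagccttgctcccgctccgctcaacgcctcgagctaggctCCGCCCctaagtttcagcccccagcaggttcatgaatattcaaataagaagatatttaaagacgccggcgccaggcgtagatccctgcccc
Sardh: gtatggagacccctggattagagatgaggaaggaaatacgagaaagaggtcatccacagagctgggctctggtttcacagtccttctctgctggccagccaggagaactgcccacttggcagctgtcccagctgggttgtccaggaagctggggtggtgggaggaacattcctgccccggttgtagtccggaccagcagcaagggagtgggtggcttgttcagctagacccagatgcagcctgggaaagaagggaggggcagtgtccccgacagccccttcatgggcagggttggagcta
The motifs searched on both strands were the TATA box with the letters TATAAA, the CCAAT box with CCAAT, the GC box with GGGCGG, the E-box with CACGTG and the cAMP response element with TGACGTCA. No letters are shared by 2 matches in these windows. The Ahcy window holds a CCAAT box and a GC box, GGGCGG, both on the opposite strand, and the Sardh window holds none of the 5. CCAAT was found in 22 of the 41 windows of 39 members (53.7%) and in 37.4% of all 32851 windows, and GGGCGG in 48.8% and 35.7%. TATAAA was found in 12.2% of the members' windows and 13.6% of all windows, CACGTG in 7.32% and 7.15%, and TGACGTCA in none and 1.79%. A match describes only the letters of the window.

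Mat1a, which makes S-adenosylmethionine in adult liver, stood just outside the threshold. It read 1479, 1774, 1843, 928 and 1998 TPM in young libraries 1 to 5, 1143, 997, 1370.0, 1291 and 1148 TPM in aged and 819, 833, 1165, 1060.0 and 888 TPM in treated libraries 1 to 5. Young 4 lay inside the treated range and the other 4 young libraries lay above every treated library. Mat1a averaged 1605 ± 422 TPM in young, 1190 ± 145 in aged and 953 ± 152 TPM in treated livers (SD, n = 5), with -0.72 ± 0.19 for treated minus young and a limma adjusted p of 0.0502. Without young 4 the difference was -0.90 with an adjusted p of 0.00251, and over the 15 fits without 1 library the adjusted p ran up to 0.137.

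Gnmt, the glycine methyltransferase that uses up surplus S-adenosylmethionine and makes sarcosine, was the most abundant gene of the cycle. Its levels were 2757, 2902, 3162, 1195 and 4782 TPM in young libraries 1 to 5, 2551, 2716, 3391, 2496 and 2391 TPM in aged and 1494, 1781, 2137, 2653 and 1499 TPM in treated libraries 1 to 5. The young libraries held both the highest and the lowest value, in young 5 and young 4. The treated-minus-young difference was -0.54 with a 95% interval of -1.12 to 0.05 (limma adjusted p = 0.324), and it was -0.83 with an adjusted p of 0.0208 without young 4. Over the 15 fits without 1 library it ran from -0.83 to -0.33, with adjusted p up to 0.64. The aged-minus-young difference of -0.01 changed sign when single libraries were left out, with a range of -0.30 to 0.20.

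The other 3 genes of the group remethylate homocysteine or pass it to cysteine. Bhmt, which remethylates it with betaine, averaged 2783 ± 920 TPM in young, 1966 ± 348 in aged and 1603 ± 693 TPM in treated livers, with -0.84 for treated minus young (limma adjusted p = 0.124). Its treated values ran over 900.1 to 2432 TPM and overlapped with the young range of 1627 to 3732 TPM. Cbs and Cth, the enzymes of transsulfuration, differed by -0.17 and -0.51 (limma adjusted p = 0.693 and 0.283).

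**Figure D4:**
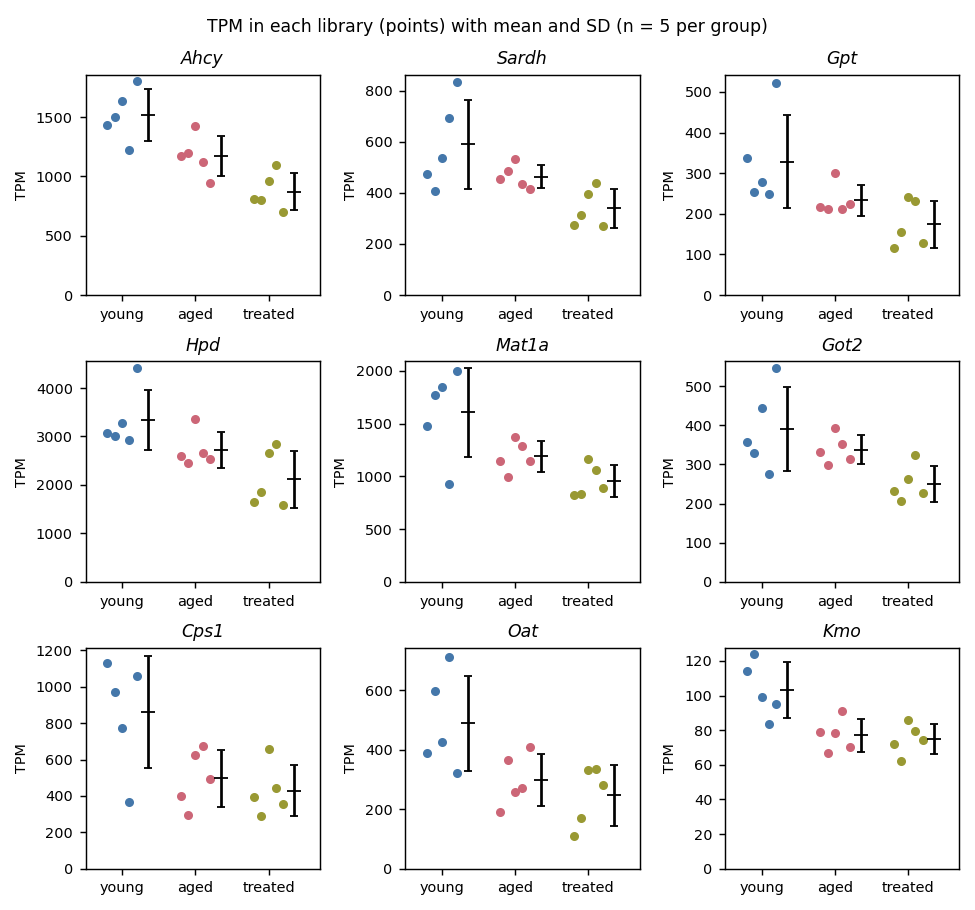
TPM in each library (points) with the mean and SD (bars, n = 5) for 9 genes in young, aged and treated livers, on linear axes from 0. For Ahcy, Gpt and Hpd all treated points lie below all young points. For each gene shown except Sardh and Oat, young 4 is the lowest young point.

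Among the 10 genes of serine, glycine and sarcosine metabolism, Sardh fell in treated against young livers and 9 had lower means, with a median of -0.25. Sardh oxidises sarcosine, the product of Gnmt, to glycine. Its level was 476, 409, 536, 693 and 835 TPM in young libraries 1 to 5, 453, 484, 531, 435 and 414 TPM in aged libraries 1 to 5 and 274, 315, 395, 440.4 and 269.8 TPM in treated libraries 1 to 5. Treated 4 lay above young 2, and the other 4 treated libraries lay below every young library. Sardh averaged 590 ± 173, 463 ± 45.7 and 339 ± 75.8 TPM in young, aged and treated livers (SD, n = 5). Against young livers the treated difference was -0.78 ± 0.19 (limma adjusted p = 0.0368), aged minus young was -0.31 (0.793) and treated minus aged was -0.47 (0.925). The call was lost when any one of young 3, young 5, aged 1, aged 2, treated 1, treated 2 or treated 5 was left out, with adjusted p from 0.0501 to 0.107. It was also lost with median-ratio scaling, with no filter, with only the 2 groups fitted, and when young 4, aged 5 and either treated 5 or treated 1 were left out together, so that Sardh was called in 15 of 27 alternatives. An antisense gene, Sardhos, overlaps an exon of Sardh and averaged 0.26 TPM, beside 464 TPM for Sardh.

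Shmt1, the cytosolic serine hydroxymethyltransferase that loads carbon units from serine onto folate, was among the 4 members with a higher mean in treated than in young livers. It read 110.4, 103, 116, 114 and 137 TPM in young libraries 1 to 5, 154, 136, 191, 175 and 120.0 TPM in aged and 192, 151, 147, 144 and 91.1 TPM in treated libraries 1 to 5. The aged and young ranges overlapped, and treated 5 lay below all other libraries. Aged minus young was 0.40 (unadjusted p = 0.0394, limma adjusted p = 0.518), and treated minus young was 0.29 (adjusted p = 0.434).

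The remaining genes of this group include the mitochondrial Shmt2, the glycine cleavage subunits Gldc, Amt and Gcsh, the dimethylglycine dehydrogenase Dmgdh, the serine dehydratase Sds, the related Sdsl and the glyoxylate aminotransferase Agxt. Their treated-minus-young differences lay between -0.39 for Amt and -0.08 for Gcsh, and none was called in any comparison. Sds averaged 264 ± 37.8 TPM in young and 268 ± 138 TPM in treated livers, where it ranged from 145 to 504 TPM, and its difference on the log2 scale was -0.10. Gcsh had the smallest SE of the group, 0.12, with 90.6 ± 12.8, 91.6 ± 5.83 and 85.4 ± 6.36 TPM in young, aged and treated livers.

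In glutamate metabolism and transamination all 5 genes averaged lower in treated than in young livers, with a median of -0.42, and Gpt fell. Gpt moves the amino group of alanine to oxoglutarate, which yields pyruvate and glutamate. Its levels were 337, 254, 278, 249 and 523 TPM in young libraries 1 to 5, 217, 213, 300.2, 211 and 225 TPM in aged libraries 1 to 5 and 117, 155, 240.4, 232 and 129 TPM in treated libraries 1 to 5. Every treated library lay below every young library, by a narrow margin between treated 3 and young 4, and treated 3 and 4 lay inside the aged range. The means were 328 ± 114, 233 ± 37.8 and 175 ± 58.1 TPM (SD, n = 5). The treated-minus-young difference was -0.91 ± 0.23, or 0.532 times the young level (limma adjusted p = 0.0426). The other comparisons gave -0.45 for aged minus young (0.645) and -0.47 for treated minus aged (0.925). The call was lost in 10 of the 15 fits without 1 library, those without young 1, 2, 3 or 5, aged 1, 2 or 4, or treated 1, 2 or 5, with adjusted p up to 0.123, and the difference without young 5 was -0.73. Gpt was called in 12 of the 27 alternatives.

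Got2, the mitochondrial aspartate aminotransferase, read 356, 329, 445, 274 and 546 TPM in young libraries 1 to 5, 331, 297, 393, 352 and 315 TPM in aged and 231, 206, 263, 323 and 227 TPM in treated libraries 1 to 5. Treated 4 overlapped with the aged and young libraries, and the other 4 treated libraries lay below every aged and every young library. For treated minus young the log2 difference was -0.62 ± 0.18 (limma adjusted p = 0.0725), and it was called without young 4 and without treated 4. In the other 13 of the 15 fits without 1 library it was not called, with adjusted p up to 0.197. Treated minus aged was -0.44 (adjusted p = 0.925).

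Gls2, the liver glutaminase that frees ammonia from glutamine, averaged 316 ± 50.8 TPM in young, 321 ± 59.4 TPM in aged and 253 ± 51.0 TPM in treated livers. Its levels were 374, 305, 237, 325 and 338 TPM in young libraries 1 to 5, 301, 293, 424, 316 and 272 TPM in aged and 252, 214, 323, 279 and 195 TPM in treated libraries 1 to 5. The 3 groups overlapped, and treated 2 and 5 held the lowest values. Treated minus aged was -0.35 with a 95% interval of -0.71 to 0.01 (limma adjusted p = 0.925).

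Glud1, the glutamate dehydrogenase and the most abundant gene of the group, read 504, 453, 446, 241 and 376 TPM in young libraries 1 to 5, 354, 338, 483, 503 and 335 TPM in aged and 351, 337, 405, 393 and 359.8 TPM in treated libraries 1 to 5. The groups overlapped throughout, with the lowest value in young 4. Between treated and young livers the log2 difference was -0.09 with a 95% interval of -0.48 to 0.30 (limma adjusted p = 0.851), which leaves room for differences within that interval. Got1, the cytosolic aspartate aminotransferase, averaged 203 ± 63.2, 155 ± 17.8 and 156 ± 66.3 TPM and was not called.

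The 4 genes of tyrosine breakdown had a median of -0.21 in treated against young livers, and none was called. Hpd, the dioxygenase that forms homogentisate and the most abundant of them, came closest. It stood at 3081, 3002, 3287, 2928 and 4405 TPM in young libraries 1 to 5, 2595, 2456, 3367, 2662 and 2543 TPM in aged and 1642, 1848, 2664, 2844 and 1596 TPM in treated libraries 1 to 5. All treated libraries lay below all young libraries, with treated 3 and 4 close to the young range and inside the aged range, and treated 1, 2 and 5 below every aged library. The means were 3340 ± 610, 2725 ± 367 and 2119 ± 591 TPM (SD, n = 5), and treated minus young was -0.68 ± 0.18 (limma adjusted p = 0.0504). Hpd was called without young 4, without treated 3 and without treated 4, with adjusted p of 0.0309, 0.0398 and 0.0211. In the other 12 of the 15 fits without 1 library it was not called, with adjusted p up to 0.144. Treated minus aged was -0.40 (adjusted p = 0.925).

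Tat, the aminotransferase that opens the pathway, averaged 1045 ± 356, 1026 ± 377 and 980.2 ± 289 TPM in young, aged and treated livers, and its treated-minus-young interval of -0.66 to 0.52 left room for sizeable differences either way. Hgd and Fah, which act after Hpd, differed by -0.14 and -0.29 (limma adjusted p = 0.697 and 0.283).

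In tryptophan breakdown the smallest p of the aged-against-young comparison was found in Kmo, the kynurenine monooxygenase. Kmo read 114, 124, 99.0, 83.5 and 95.4 TPM in young libraries 1 to 5, 78.8, 66.6, 78.3, 91.0 and 70.0 TPM in aged and 72.1, 62.2, 85.9, 79.5 and 74.5 TPM in treated libraries 1 to 5. Young 4 lay inside the aged and treated ranges, and the other 4 young libraries lay above every aged library. The means were 103 ± 16.0, 76.9 ± 9.44 and 74.9 ± 8.83 TPM (SD, n = 5). Aged minus young was -0.41 ± 0.14 (limma adjusted p = 0.266), treated minus aged -0.04 (0.988) and treated minus young -0.45 (0.096).

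Haao, the hydroxyanthranilate dioxygenase on the route to NAD, was the most abundant gene of the tryptophan group. Its levels were 517, 449, 602, 578 and 601 TPM in young libraries 1 to 5, 655, 599, 793, 594 and 509.6 TPM in aged and 508, 594, 643, 562 and 440.2 TPM in treated libraries 1 to 5. Young and treated means were 549 ± 65.9 and 549 ± 78.2 TPM, and the interval of their log2 difference was -0.31 to 0.31 (limma adjusted p = 0.995). The sign of that difference changed in several alternative analyses. Tdo2, the dioxygenase that opens the pathway, and Kynu, the kynureninase, differed by -0.33 and -0.01 between treated and young livers and were not called.

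Of the 7 urea cycle genes none was called, with medians of -0.22 for aged minus young, -0.21 for treated minus aged and -0.27 for treated minus young. Cps1, the mitochondrial synthetase of carbamoyl phosphate through which ammonia enters the cycle, had the largest differences against young livers. Its level was 1132, 973, 773, 369.6 and 1062 TPM in young libraries 1 to 5, 399, 294, 626, 672 and 494 TPM in aged and 394, 288, 656, 445 and 357 TPM in treated libraries 1 to 5. Young 4 was far below the other young libraries and lay inside the aged and treated ranges, and the other 4 young libraries lay above all aged and treated libraries. Cps1 averaged 862 ± 306, 497 ± 157 and 428 ± 139.6 TPM (SD, n = 5). Aged minus young was -0.75 ± 0.31 (limma adjusted p = 0.445) and treated minus young was -0.96 ± 0.31 (0.106). Without young 4, where 9.78% of all genes were called for treated against young, Cps1 was called in that comparison. The aged-minus-young difference without young 4 was -1.03 with an adjusted p of 0.0638. Over the 15 fits without 1 library it ran from -1.03 to -0.58, with adjusted p up to 0.717.

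Ass1, which joins citrulline and aspartate and is the most abundant of the 49 genes, read 4042, 2867, 2859, 2918 and 4319 TPM in young libraries 1 to 5, 2809.9, 2478, 3899, 2642 and 2707 TPM in aged and 2225, 1797, 3268, 2451 and 1567 TPM in treated libraries 1 to 5. Treated 1, 2, 4 and 5 lay below every young library and treated 3 lay inside the young range. Against young livers the treated difference was -0.61 ± 0.20 (limma adjusted p = 0.111) and was not called in any of the 27 alternative analyses. Asl, the lyase that follows it, differed by -0.58 (adjusted p = 0.118).

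The other urea cycle genes showed smaller differences. Otc, the transcarbamylase that makes citrulline, averaged 158 ± 64.3 TPM in young and 158 ± 22.5 TPM in treated livers, with a log2 difference of 0.09 and an interval of -0.42 to 0.60. Arg1, the arginase that releases urea, averaged 1342 ± 253, 1089 ± 95.3 and 1216 ± 246 TPM. Nags, which makes the activator of Cps1, and Slc25a15, the mitochondrial ornithine carrier, differed by -0.26 and -0.27 between treated and young livers (limma adjusted p = 0.326 and 0.521).

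Oat, the mitochondrial ornithine aminotransferase, had the largest treated-minus-young difference of the 49 genes and was not called. It stood at 387, 597, 425, 710.4 and 323 TPM in young libraries 1 to 5, 191, 364, 257, 271 and 408 TPM in aged and 109.8, 171, 333, 335 and 282 TPM in treated libraries 1 to 5. Treated 1 and 2 were the lowest of all libraries, and treated 3 and 4 lay just above young 5, the lowest young library. The treated-minus-young difference was -1.05 ± 0.31 (limma adjusted p = 0.0844), aged minus young -0.70 (0.516) and treated minus aged -0.35 (0.925). The other genes of the proline and ornithine group, Prodh2 and Aldh4a1, differed by -0.11 and -0.42 between treated and young livers. The SE of Aldh4a1 was 0.40, and young 4 held 45.0 TPM of it where the other young libraries held 223 to 314 TPM.

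The 4 enzymes of histidine breakdown act in sequence, and all had lower means in treated than in young and in aged livers, with medians of -0.47 and -0.30. Hal, the histidine ammonia-lyase at the head of the pathway, read 234, 174, 212, 217 and 273 TPM in young libraries 1 to 5, 184, 150.1, 259.8, 157 and 155 TPM in aged and 105, 146, 179, 169 and 128 TPM in treated libraries 1 to 5. Treated 3 lay just above the lowest young library, young 2, and the other 4 treated libraries lay below every young library. For treated minus young the log2 difference was -0.61 ± 0.18 (limma adjusted p = 0.0838).

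Uroc1, the urocanate hydratase that follows Hal, stood at 174, 161, 218, 144 and 264 TPM in young libraries 1 to 5, 179, 155, 248, 188 and 178 TPM in aged and 122, 143, 176, 161 and 110.5 TPM in treated libraries 1 to 5. Treated 1, 2 and 5 lay below all young and aged libraries, and treated 3 and 4 lay among them. Its mean was 192 ± 48.4 TPM in young, 189.6 ± 35.1 in aged and 142 ± 27.1 TPM in treated livers, and treated minus aged was -0.41 (limma adjusted p = 0.925). Amdhd1 and Ftcd, the last enzymes of the pathway, differed by -0.52 and -0.27 between treated and young livers (adjusted p = 0.0932 and 0.464).

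Of the 6 genes of branched-chain amino acid and lysine breakdown none was called, and 4 had lower means in treated than in young livers, with a median of -0.30. Bckdha, a subunit of the branched-chain ketoacid dehydrogenase, was the most abundant. It read 160.1, 175, 212, 129 and 208 TPM in young libraries 1 to 5, 168, 154, 194, 160.0 and 152 TPM in aged and 127, 130.4, 151, 174 and 115 TPM in treated libraries 1 to 5. The groups overlapped, and treated minus young was -0.33 with an interval of -0.66 to just under 0 (limma adjusted p = 0.276). Its partner subunit Bckdhb differed by 0.08 with an interval of -0.24 to 0.41. Ivd and Mccc1 of leucine breakdown differed by -0.42 and -0.28, and Aass, the entry enzyme of lysine breakdown, by -0.60 (adjusted p = 0.111). Hibch, of valine breakdown, had the largest positive difference of the 49 genes at 0.44 ± 0.28 (adjusted p = 0.436), with young values of 12.2 to 36.8 TPM and treated values of 22.5 to 45.8 TPM.

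The treated libraries were not alike across the 49 genes. Their sum was 1.78, 1.67, 2.52, 2.31 and 1.56% of TPM in treated 1 to 5, beside 2.40 to 3.53% in young and 2.13 to 2.82% in aged libraries. Treated 1, 2 and 5 lay below every aged library, and treated 3 and 4 lay inside the aged range. Treated 5 held the lowest of the 15 values for 21 of the 49 genes, treated 2 for 9, young 4 for 7 and treated 1 for 6, while young 5 held the highest for 17. Treated 5 also had the highest macrophage and Kupffer marker sum at 3210 TPM, and treated 1, with 595 TPM, had a sum inside the young range. The pericentral marker sum was 3819, 4150 and 4139 TPM in treated 1, 2 and 5 and 5850 and 5799 TPM in treated 3 and 4. It ran from 6799 to 10230 TPM in young and from 4269 to 5991 TPM in aged libraries. All treated libraries thus lay below every young library. Cyp2e1 alone averaged 4316, 2294 and 1793 TPM in young, aged and treated livers, beside mean sums of 8435, 5512 and 4751 TPM. Whether these shifts bear on the low values of treated 1, 2 and 5 was not tested.

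**Figure D5:**
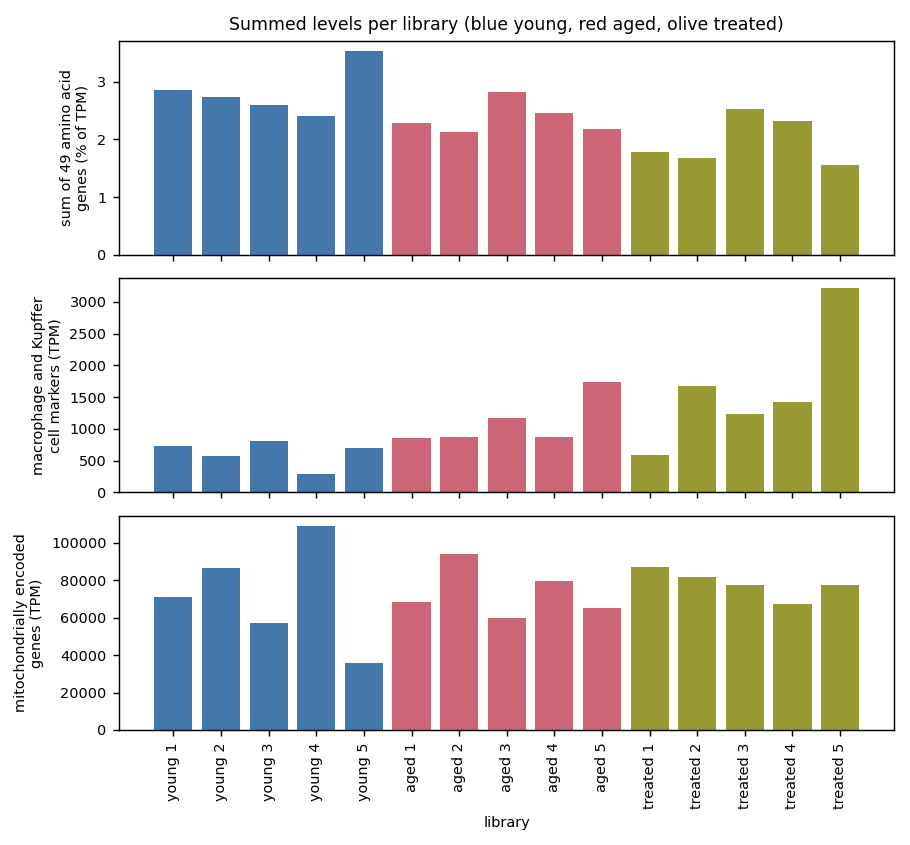
Sum of the 49 genes as a percent of TPM, sum of 13 macrophage and Kupffer cell markers in TPM, and sum of 13 mitochondrially encoded genes in TPM, as bars from 0 for each library. Treated 1, 2 and 5 have the lowest sums of the 49 genes, at 1.78, 1.67 and 1.56%, while the marker sums of treated 1 and treated 5 are 595 and 3210 TPM.

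Amino acid genes outside the 49 were examined as 3 further lists. Of 95 other enzymes, 87 were tested. In the treated-against-young comparison 63 of the 87 had lower treated means, where 42.5% of all genes tested did. Of the 87, 1 was called, beside 2.91% of all genes tested. This was Grhpr, the glyoxylate and hydroxypyruvate reductase that works beside Agxt on glyoxylate. Grhpr read 201, 202, 238, 103 and 256 TPM in young libraries 1 to 5, 124, 119, 135, 109 and 108 TPM in aged and 88.5, 109, 121, 99.2 and 104 TPM in treated libraries 1 to 5. Young 4 lay at the level of the aged and treated libraries and the other 4 young libraries lay above them all. Between treated and young livers the log2 difference was -0.88 ± 0.20 (limma adjusted p = 0.0234), and the median of the list was -0.19. Afmid, the formamidase of kynurenine formation, did not pass at -0.75 (adjusted p = 0.06), with all treated libraries below all young ones. Sat1, which acetylates polyamines, had 0.85 (adjusted p = 0.0606). In aged against young livers, the glycolate oxidase Hao1 had -0.71 (adjusted p = 0.131), and the asparaginase Asrgl1 had 0.41 (adjusted p = 0.222) with all aged libraries above all young ones. In treated against aged livers, Adi1 of the methionine salvage pathway had -0.30 (adjusted p = 0.925).

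Of 32 amino acid transporters 25 were tested, with a median treated-minus-young difference of -0.10. Of the 25, 14 had lower treated means, where 42.5% of all genes tested did, and 1 was called, beside 2.91% of all genes. Slc1a2, a glutamate transporter of the hepatocytes around the central vein, fell from 42.5 ± 3.29 TPM in young to 27.5 ± 3.15 TPM in treated livers. Its values were 38.5 to 46.5 TPM in young, 22.7 to 33.4 in aged and 23.2 to 30.8 TPM in treated libraries, so that the young libraries lay above all others. Against young livers the treated difference was -0.61 ± 0.13 (limma adjusted p = 0.0194) and aged minus young -0.54 (0.0686). Slc7a2, a carrier of arginine and other cationic amino acids, had -0.83 (adjusted p = 0.0991), and none of the remaining transporters was called in any comparison. Slc1a5, a glutamine carrier, had 0.51 for aged against young (adjusted p = 0.725) and 0.865 for treated against young (adjusted p = 0.129). All its treated libraries lay above all young ones, at low means of 1.08 TPM in young, 2.27 in aged and 2.93 TPM in treated livers. For treated against aged, Slc6a13, Slc6a6 and Slc38a4, carriers of GABA, of taurine and of neutral amino acids, had -0.35, -0.46 and -0.28 (adjusted p = 0.925 for each).

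Among 29 regulators of amino acid metabolism none was called in any comparison, beside 2.91% of all genes tested in treated against young livers. In that comparison 25 had lower treated means, where 42.5% of all genes tested did. Their median was -0.33, beside 0.06 over all genes. Trib3, a target of the amino acid stress response, averaged 3.18 ± 1.10 TPM in young, 1.52 ± 0.844 in aged and 1.27 ± 0.468 TPM in treated livers (limma adjusted p = 0.0693 for treated against young). Klf15, a transcription factor that drives amino acid breakdown in mouse liver, averaged 84.0 ± 14.8, 67.5 ± 11.9 and 58.4 ± 22.5 TPM (-0.57, adjusted p = 0.156). Klf9 and Pck1, both responsive to glucocorticoids, differed by -0.48 and -0.51 between treated and young livers (adjusted p = 0.395 and 0.356). The hepatocyte transcription factor Cebpa and the insulin-responsive factor Foxo1 had -0.40 and -0.30 for treated against aged (adjusted p = 0.925 for both).

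Exons of 12 of the 49 genes overlap another gene in GENCODE M21, and whether reads were assigned by strand is not given in the sources used here. Reads of such pairs on opposite strands cannot be told apart without strand, and strand does not separate a pair on the same strand. The overlapping genes were low beside the members, with Plbd2 at 25.4 TPM beside 248 for Sds, Spryd4 at 22.3 beside 297 for Gls2 and Gm21969, on the same strand, at 8.94 beside 182 for Aldh4a1. Ahcy and Gpt overlap no other exon.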

How the data were processed

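Gene expression was measured by RNA-seq of total RNA from 15 mouse liver libraries. Per the submitters' processing notes the authors used fastp, HISAT and RSEM with GRCm39, with no versions or settings stated. The deposited values are TPM, scaled by the authors within each library to a common sum (from 999999 to 1000001) and given to 2 decimals. Depth is not recoverable from TPM, so no counting error is given. The table also holds 3 columns of per-group means, which were not used.

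TPM were converted to log2(TPM + 1) for the 12168 genes averaging 1 TPM or more across libraries. A single model with the 3 groups was fitted in limma 3.58.1 (R 4.3.3), with a variance trend and robust estimation, and p-values were adjusted over all 12168 genes by the Benjamini-Hochberg method. The procedure was tried on simulated data in which the noise of each gene was independent. That simulation held no shift of a whole library, so it does not show how calls respond to 1 divergent library. The labels do not state that the replicate numbers pair the samples, so the numbers were left out of the main fit. Correlations of same-numbered libraries ran from -0.249 to 0.309, which cannot decide whether the samples were paired. The 49 genes, the other gene and marker lists, the tests and the alternatives were chosen with earlier results of these data known.

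Values in every library are given for called members, for the 6 members with the smallest p in each comparison and for the most abundant member of each role. From the other lists, called genes and those of smallest p are named. Bhmt, Aldh4a1, Hibch and the remaining members are given by means, ranges or differences. Gcat and Ddit3 each occur on a pair of entries, and the entry with the higher mean was used. Gene overlaps and promoters come from GENCODE M21 and RefSeq on GRCm38.p6.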

Additional observations from a re-analysis of the deposited data

Results flagged for a closer look

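Within each group of 5 libraries, the gap of the highest or lowest library to its neighbour was compared with the whole range of the group, at Dixon's 95% critical value of 0.71. Over 147 sets of a gene and a group, 9 stood out, and chance alone flags about 1 in 20. No explanation was tested for any of them.

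In aged 3, Ass1 stood at 3898.81 TPM beside 2477.89 to 2809.9 TPM in the other aged libraries. The same library held 300.16 TPM of Gpt beside 211.27 to 224.53 TPM, and 3367.4 TPM of Hpd beside 2455.79 to 2661.92 TPM. Aged 3 also had the largest summed share of the 49 genes among the aged libraries, 2.82% of TPM. In young 5, Hpd stood at 4404.96 TPM beside 2927.81 to 3287.28 TPM, in the library with the highest share of all 15, 3.53%.

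Young 4 was low for 3 genes. Aldh4a1 stood at 44.97 TPM there beside 222.78 to 313.71 TPM in the other young libraries, Amdhd1 at 124.98 beside 183.74 to 191.19 TPM, and Ftcd at 114.8 beside 175.39 to 206.31 TPM. Aldh4a1 and Amdhd1 were among the 12 members called for treated against young when young 4 was left out, and Ftcd was not. In that fit 9.78% of all genes were called.

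In treated 3, Tdo2 stood at 354.45 TPM beside 149.71 to 188.22 TPM in the other treated libraries. In treated 1, Sdsl stood at 8.09 TPM beside 10.7 to 11.74 TPM.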

How the results depend on the processing

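Across 27 alternatives, 25 of which were planned and 2 of which were added after seeing the data (young 4, aged 5 and treated 5, or young 4, aged 5 and treated 1, left out together), the median difference of the 49 genes stayed below that of all genes in each comparison. The difference of the medians ran from -0.20 to -0.10 for aged minus young, from -0.32 to -0.16 for treated minus aged and from -0.45 to -0.26 for treated minus young. Quantile normalization moved the median of all genes in treated minus young from 0.06 to -0.07, and relative to it the members stood at -0.26 in place of -0.39. The number of members called for treated against young, 3 as reported, was 5 with a pseudocount of 0.1 (3.67% of all genes called), 1 with no filter (0.693%), 10 with median-ratio scaling (4.91%, Sardh not among them), 8 with quantile normalization (4.72%), 5 without mitochondrial and haemoglobin genes (3.24%), 13 with library weights (12.6%), 1 when only the 2 groups compared were fitted (2.27%), 6 and 11 in the added alternatives (5.2 and 12%), and 1 to 12 when single libraries were left out (1.51 to 9.78%). The share over all genes, 2.91% as reported, rose in each setting that raised the members' count to 5 or more. For aged against young the number of members called was 1 with library weights (Kmo, limma adjusted p = 0.0482), where 2.01% of all genes were called. That number was 0 in the other settings, and for treated against aged it was 0 throughout. The cause of these moves was not tested. With the replicate number as a block, 2 members were called for treated against young, beside 3.07% of all genes, and Gpt had an adjusted p of 0.065.

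Of 1080 values for 40 single-gene results, 997 kept their direction and side of the threshold, 27 lost and 32 gained a call, and 24 reversed, none of them called. For aged minus young, Glud1 (0.02) was -0.0467 with median-ratio scaling, -0.16 with library weights, -0.10 in both added alternatives and -0.16 to 0.11 without single libraries, and Gnmt ran from -0.30 to 0.20 without single libraries. For treated minus young, Haao (0.00) was 0.0051 without mitochondrial and haemoglobin genes, 0.11 with library weights, 0.0939 and 0.0422 in the added alternatives and -0.0737 to 0.0733 without single libraries, and Glud1 ran from -0.26 to 0.0009 without single libraries. For treated minus aged, Oat was 0.0386 without young 4, aged 5 and treated 1. Depth is unknown, so its limit on low genes such as Sdsl could not be assessed.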
